A study of Caenorhabditis elegans with 2 samples.

Results

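The peaks described here are the 1449 regions of the authors' pooled ChIP-seq list, of 9606 in all, whose summits lay inside protein-coding sequence on the autosomes and away from gene starts. A peak was included when its summit fell in a coding exon on chromosomes I to V, more than 500 bp from every protein-coding transcript start and more than 200 bp from any tRNA, snRNA, snoRNA or rRNA gene. The rule used position alone, on build ce11 (WBcel235), and no measured value beyond presence in the list. Under the RefSeq annotation of the same assembly the rule gave 1466 peaks, and 1447 of these were shared with the Ensembl set.

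ChIP-seq crosslinks proteins to DNA, shears the chromatin (here by sonication), recovers the tagged protein with an antibody and sequences the DNA that comes with it. The experiment used whole hermaphrodite C. elegans of strain OP465, genotype unc-119(tm4063) III; wgIs465, in which the transgene wgIs465 supplies the nuclear hormone receptor NHR-179 with a GFP-FLAG tag at its C-terminus. Animals were young adults collected 64 hours after synchronization as L1 larvae starved after bleaching, and an anti-GFP antibody was used. There were 2 biological replicates, numbered 2 and 3, both of this single group, so the series holds no contrast between conditions. All animals carried the unc-119 allele and the transgene. The promoter that drives the fusion is not given in the sources used here, and no untagged strain was analysed here.

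Nuclear hormone receptors are ligand-regulated transcription factors that commonly bind short DNA elements in promoters and enhancers, and the family is greatly expanded in nematodes. Coding exons are richer in G and C than introns or intergenic DNA in this genome, and their sequence is constrained by the protein they encode. Cuticle collagens, a large gene family that builds the exoskeleton of the worm, encode long runs of glycine-X-Y triplets in which X and Y are often proline.

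The summits of the 5 peaks that also appeared in the authors' optimal list are shown first, because these passed the authors' own test of reproducibility. Each line gives the summit base and 50 bp on either side, 5′ to 3′ on the coding strand of the gene, from the RefSeq sequence of WBcel235, and the capitals mark the 21 bases around the summit. The windows are chrIII:836078-836178 (minus strand) for dos-3, chrIV:17183147-17183247 (minus) for col-138, chrII:1149581-1149681 (plus) for pod-2, chrIII:4378682-4378782 (plus) for pals-26 and chrV:6277825-6277925 (plus) for F31F7.1.
dos-3: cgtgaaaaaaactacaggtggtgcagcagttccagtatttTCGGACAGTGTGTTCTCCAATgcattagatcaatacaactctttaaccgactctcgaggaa
col-138: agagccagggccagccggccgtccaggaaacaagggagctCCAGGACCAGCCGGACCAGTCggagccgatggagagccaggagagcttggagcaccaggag
pod-2: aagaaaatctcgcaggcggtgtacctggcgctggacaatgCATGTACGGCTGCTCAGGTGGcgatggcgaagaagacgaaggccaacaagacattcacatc
pals-26: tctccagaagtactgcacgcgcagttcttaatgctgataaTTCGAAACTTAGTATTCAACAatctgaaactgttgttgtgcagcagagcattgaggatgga
F31F7.1: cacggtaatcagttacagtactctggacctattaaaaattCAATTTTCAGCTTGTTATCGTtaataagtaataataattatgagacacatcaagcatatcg
Their composition ranged from 30.7% G and C in F31F7.1, a window that begins in an intron, to 67.3% in col-138. No common composition joined the 5 windows, since dos-3 stood at 42.6%, pals-26 at 41.6% and pod-2 at 54.5%.

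A second set shows the collagen windows with the highest signal among those found in both replicates, because collagen genes held more of these peaks per base than any other list with more than 1 gene. Here the capitals mark in-frame glycine codons. The windows are the same col-138 interval, chrIV:4264758-4264858 (plus) for col-33, chrII:3500549-3500649 (minus) for col-71 and chrIV:258544-258644 (minus) for dpy-9.
col-138: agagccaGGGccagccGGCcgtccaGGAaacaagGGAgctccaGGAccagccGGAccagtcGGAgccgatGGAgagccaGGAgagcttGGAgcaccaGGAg
col-33: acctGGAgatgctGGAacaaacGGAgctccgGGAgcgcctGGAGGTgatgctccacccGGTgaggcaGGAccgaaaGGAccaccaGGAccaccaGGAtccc
col-71: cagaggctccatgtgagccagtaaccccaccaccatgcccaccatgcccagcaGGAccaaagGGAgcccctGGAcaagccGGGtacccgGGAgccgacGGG
dpy-9: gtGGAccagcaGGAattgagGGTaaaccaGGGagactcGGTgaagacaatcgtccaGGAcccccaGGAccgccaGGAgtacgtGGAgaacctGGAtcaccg
Glycine took 11 of the 33 codons in col-138 and in col-33, 10 in dpy-9 and 6 in col-71. Proline took 8, 10, 9 and 11 codons in the same order. The col-71 window straddled the start of a triplet run, with cysteine and proline codons before it.

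Peaks in coding exons had an ordinary median height for the pooled list, but a lower maximum than the other autosomal classes. Signal is the authors' own value for each peak, its scale is not stated, and it is used here only to rank and describe peaks within a list. The lowest value among the 1449 was 30.1, the median 36.1 (interval of the median 35.6 to 36.5) and the highest 94.8, with quartiles at 32.6 and 41.4. All autosomal pooled peaks also had a median of 36.1, while promoter, intron and intergenic peaks stood at 36.2, 35.5 and 35.2, and peaks at small RNA genes at 51.6. The highest signal was 106.6 in untranslated exons, 113.8 in promoters, 172.4 in introns, 194.0 in intergenic DNA and 328.9 at small RNA genes. Every coding exon peak was 444 bp wide. The pooled list holds background regions as well as peaks, and 20 of the 1449 had a deposited q value of 0.05 or lower. The median −log10 q of the 1449 was 0.0855. The same count was not taken over all pooled peaks, so the 20 do not set coding exon peaks apart from the list. In whole animals, strong binding in few cells and weak binding in many cannot be told apart.

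Coding exons held slightly more of the list than their length. They took 20.9% of the 6943 autosomal pooled peaks (exact 95% interval 19.9 to 21.8%) and 18.4% of the autosomal bases. The density was 95.6 peaks per Mb over the 15155325 coding bases that met the same position rule, called eligible bases below. Autosomal pooled peaks as a whole stood at 84.1 per Mb, promoters at 110.5, introns at 56.2 and intergenic DNA at 60.9. Untranslated exons stood at 145.5 per Mb, and small RNA genes with 200 bp on either side at 880. Coding exons thus lay below these classes and promoters, and above introns and intergenic DNA. Of these peaks, 122 (8.42%) overlapped another of the set, and merging left 1387 separate intervals.

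Few of the peaks passed the authors' reproducibility filter. The optimal list, chosen by the irreproducible discovery rate, held 5 of the 1449 (0.345%), against 1.83% of all autosomal pooled peaks. Intron peaks stood at 0.487%, promoter peaks at 0.735%, untranslated exon peaks at 0.906%, intergenic peaks at 1.14% and small RNA peaks at 23.3%. Small RNA peaks made 81 of the 127 autosomal peaks in the optimal list, so they weigh heavily in the 1.83%. The lowest signal in the optimal list was 74.7, and the optimal list was built from the pooled and replicate lists, so high signal in both replicates is part of how the 5 were chosen.

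The highest peak lay in dos-3 (WBGene00019331, chrIII:835906-836349), which encodes a Delta and OSM-11-like protein, a family of secreted or membrane ligands of the Notch pathway. Its signal was 94.8 in the pooled list, 49.5 in replicate 2 and 41.1 in replicate 3. The summit was in the last of 11 coding exons, and the peak ranked 57 among autosomal pooled peaks. In the cuticle collagen gene col-138 (WBGene00000711, chrIV:17182975-17183418) the values were 91.7, 50.6 and 37.8, in its single coding exon of 843 bp. This summit lay 532 bp from the transcript start, close to the 500 bp limit of the rule.

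In pod-2 (WBGene00004076, chrII:1149409-1149852), the acetyl-CoA carboxylase that commits acetyl-CoA to fatty acid synthesis, the signal was 90.2 in the pooled list, 36.9 in replicate 2 and 50.8 in replicate 3. The summit was in coding exon 9 of 11, an exon of 3545 bp, and 5695 bp from the nearest start. In pals-26 (WBGene00007131, chrIII:4378510-4378953), one of a large nematode family with an ALS2CR12 signature, the values were 79.8, 39.8 and 41.0, in the last of 5 coding exons. In F31F7.1 (WBGene00017964, chrV:6277653-6278096), which RefSeq names as an N-acetyltransferase domain protein, they were 78.4, 25.4 and 51.4. That summit fell at the very start of the last of 3 coding exons. All 5 peaks had a summit in both replicate lists. Values from the 3 lists stand side by side and are not compared between lists, since their scale is not stated.

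**Figure D1:**
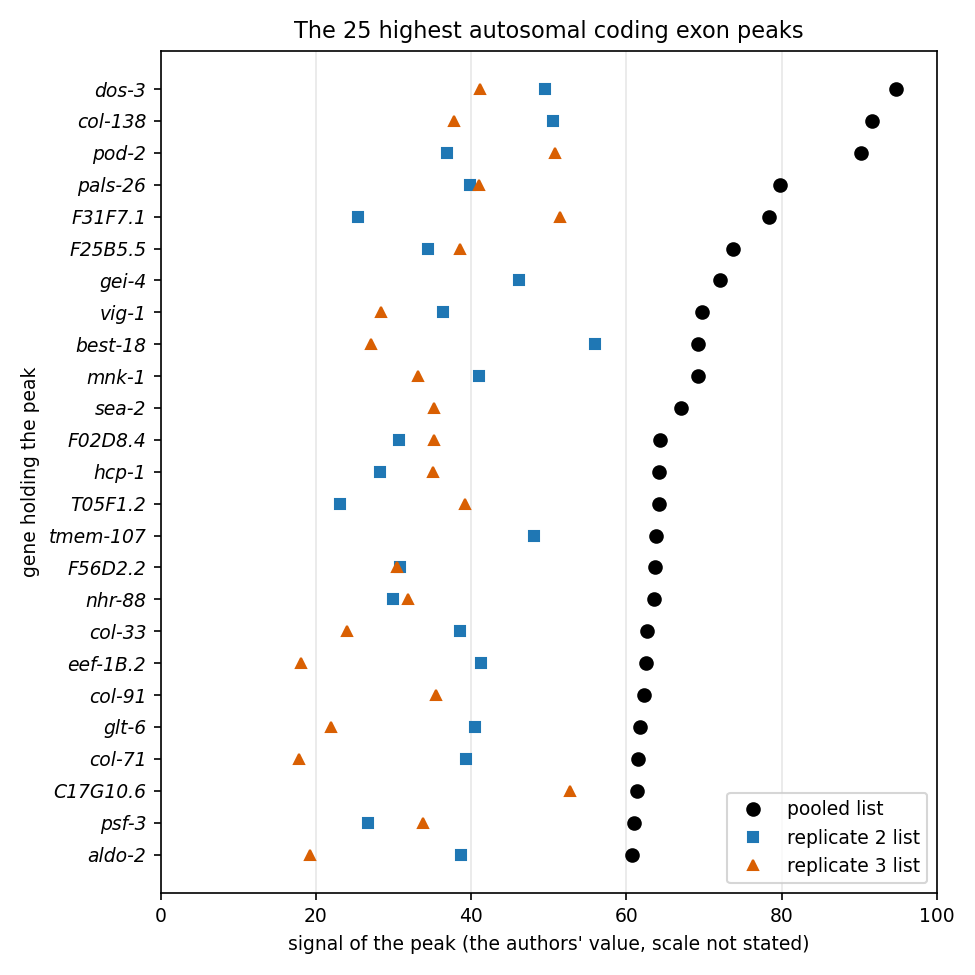
Signal (x axis, the authors' value, scale not stated) of the 25 highest coding exon peaks, 1 gene per line, in the pooled list (black circles) and at the nearest summit within 100 bp in replicate 2 (blue squares) and replicate 3 (orange triangles). A missing symbol means no summit within 100 bp in that list; pooled values run from 60.7 in aldo-2 to 94.8 in dos-3, and 5 of the 25 lack a replicate symbol. Values are not compared between lists.

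The next 20 peaks by signal ran from 73.7 to 60.7. The first of them lay in F25B5.5, a CDK5RAP1-like gene, with a pooled signal of 73.7 and 34.5 and 38.6 in replicates 2 and 3, in the last of 8 coding exons. The peak in gei-4, a gene with a bZIP domain, had a pooled signal of 72.0 and 46.2 in replicate 2, with no summit nearby in replicate 3. In mnk-1, a kinase of the type that phosphorylates the cap-binding factor eIF4E, the values were 69.2, 41.1 and 33.2. In sea-2, an autosomal signal element of sex determination, they were 67.0 in the pooled list and 35.3 in replicate 3, with no replicate 2 summit.

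One peak in this range fell in a gene of the same receptor family as the tagged protein. In nhr-88 the pooled signal was 63.6, with 29.95 in replicate 2 and 31.9 in replicate 3, and the summit was in the last of 8 coding exons, 2742 bp from the nearest start. In vig-1, which encodes an RNA-binding protein, the values were 69.8, 36.4 and 28.4. In eef-1B.2, a guanine nucleotide exchange subunit of translation elongation factor 1, they were 62.5, 41.2 and 18.1. The eef-1B.2 summit was coding only in a transcript other than the longest.

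The bestrophin gene best-18, of a family of chloride channels, had 69.3 in the pooled list, 56.0 in replicate 2 and 27.2 in replicate 3. The glutamate transporter gene glt-6 had 61.7, 40.5 and 21.9, and the glycolytic aldolase gene aldo-2 had 60.7, 38.8 and 19.3. All 3 had a summit in both replicates. The transmembrane gene tmem-107 had 63.8 in the pooled list and 48.1 in replicate 2, with no summit in replicate 3.

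In hcp-1, a component of holocentric kinetochores, the values were 64.2, 28.2 and 35.05, and in psf-3, a subunit of the GINS complex that acts at replication forks, 61.0, 26.7 and 33.8. Both had a summit in each replicate. The peptidase M14 domain gene F02D8.4 had 64.4, 30.7 and 35.2, the RBR-type E3 ubiquitin transferase gene F56D2.2 had 63.8, 30.8 and 30.4, and T05F1.2, with an F-box associated domain, had 64.2, 23.04 and 39.2. C17G10.6, which encodes a protein with a ShKT domain, had 61.4 in the pooled list and 52.8 in replicate 3 alone. Of the 25 peaks, 15 lay in a last or single coding exon, 5 lacked a summit in a replicate, and none had a repeated 32-base word in its window.

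The replicates shared a minority of the peaks. A summit within 100 bp was found in replicate 2 for 777 peaks (53.6%), in replicate 3 for 801 (55.3%), in both for 314 and in neither for 185 (12.8%). The 314 made 21.7% (exact interval 19.6 to 23.9%), against 23.8% of all autosomal pooled peaks. For scale, 0.396% of eligible bases lay within 100 bp of a summit in both lists, 2.59% of one in replicate 2 and 2.78% of one in replicate 3. The pooled list was called on the same reads as the replicate lists, so these shares are not independent of it.

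Recurrence tracked signal. Among the 363 peaks of lowest signal 11 (3.03%) had a summit in both replicates, then 25 of 362 (6.91%), 74 of 362 (20.4%), and 204 of the 362 highest (56.4%). Other autosomal peaks in the same 4 signal ranges stood at 2.74%, 8.55%, 25.2% and 57.4%. Coding exon peaks therefore recurred about as often as other peaks of their own height. Above a signal of 50, 88 of 133 (66.2%) recurred.

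**Figure D2:**
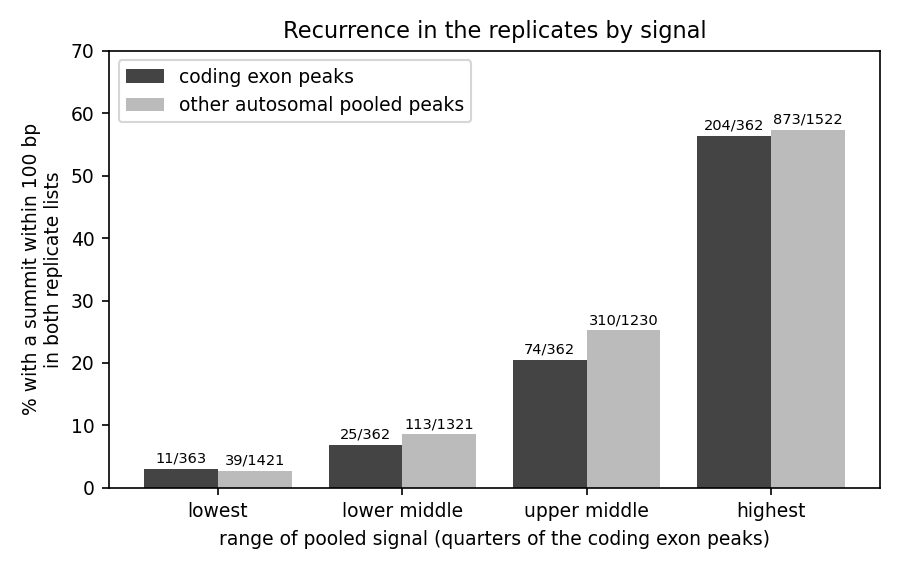
Share of peaks with a summit within 100 bp in both replicate lists (y axis, %) in 4 ranges of pooled signal (x axis), for coding exon peaks (dark) and other autosomal pooled peaks (light), with the counts above each bar. The dark bars climb from 3.03% to 56.4%, and the light bars from 2.74% to 57.4%.

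Where both replicates had a summit, the heights hardly tracked each other. Across the 314 peaks Spearman's rho between replicate 2 and replicate 3 signals was 0.0924, against 0.331 across the 1649 such autosomal peaks of all classes. Replicate medians were 22.1 and 21.1, and the summits lay a median of 45 bp apart. These peaks were kept for having both values above each list's minimum and share the pooled call, so rho describes them only. Promoter peaks found in both replicates stood at 0.224 and intron peaks at 0.212.

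Collagen genes held the largest block of related peaks. Of 148 autosomal collagen genes with eligible bases, 78 (52.7%) held at least 1 peak, against 8.22% of all genes (1257 of 15299). The 78 genes held 83 peaks, or 848 per Mb, against 95.6 per Mb over all genes. The lists of replicates 2 and 3 gave 838 and 787 per Mb on collagen genes, against 125.4 and 136.4 over all genes. Of the 148 collagen genes, 44 held a peak in both replicate lists, against 565 of all 15299 genes.

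Collagen peaks were also higher. Their signals ran from 30.2 to 91.7 with a median of 39.9, against 35.9 for the other 1366 peaks, and 37 of the 83 (44.6%) lay above the upper quartile of all 1449. They made 8 of the 363 lowest peaks (2.20%), then 17 (4.70%), 21 (5.80%) and 37 of the 362 highest (10.2%). A summit in both replicates was found for 28 of the 83 (33.7%), against 286 of 1366 others (20.9%). Another 30 were in replicate 2 alone, 21 in replicate 3 alone and 4 in neither.

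Below col-138, 3 collagen peaks were among the 25 highest. In col-33 the pooled signal was 62.7, with 38.6 in replicate 2 and 24.0 in replicate 3. In col-91 it was 62.3, with no summit in replicate 2 and 35.5 in replicate 3. In col-71 it was 61.5, with 39.3 and 17.8. Those in col-33 and col-71 were found in both replicates, and that in col-91 in replicate 3 alone. Collagen genes resemble each other, and 12 of the 83 windows (14.5%) held a 32-base word found elsewhere in the genome, against 4.49% of all 1449 windows.

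**Figure D3:**
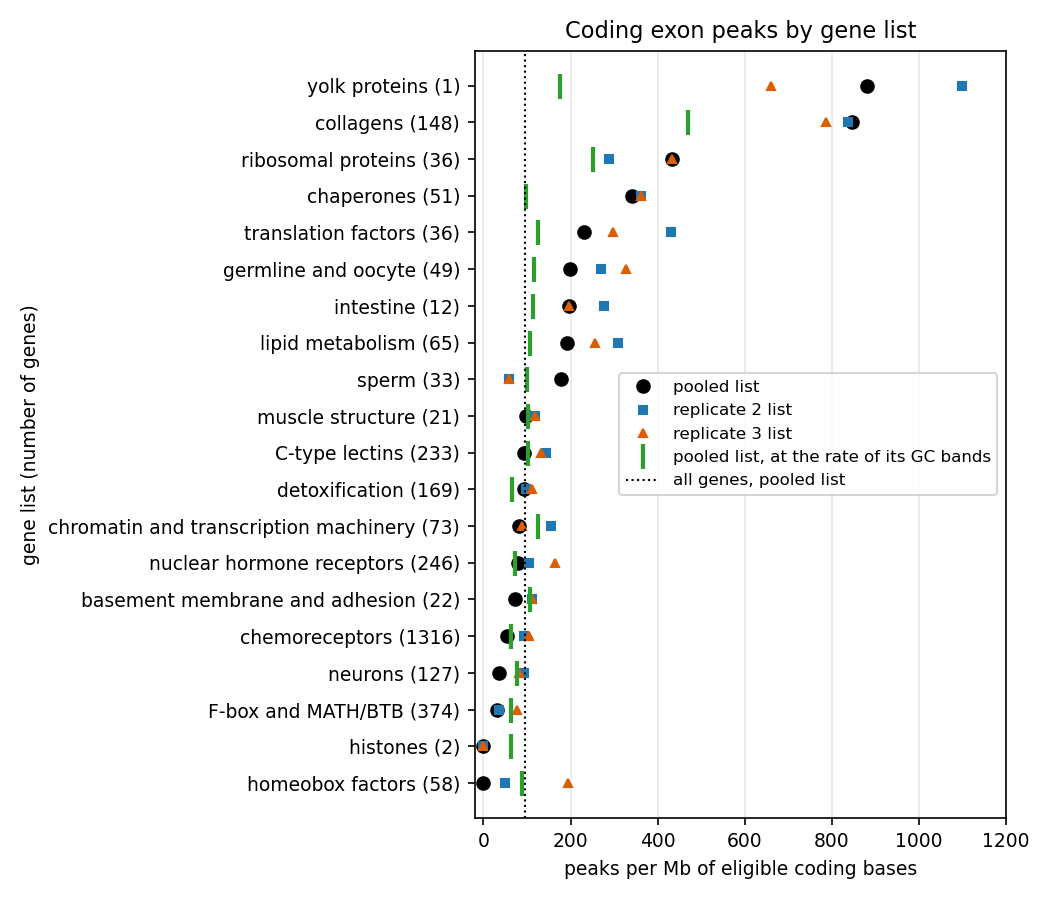
Peaks per Mb of eligible coding bases (x axis) for 20 gene lists (y axis, number of genes in brackets) in the pooled list (black circles), replicate 2 (blue squares) and replicate 3 (orange triangles). Green ticks give the pooled density each list would have at the average rate of its GC bands, and the dotted line is the density over all genes, 95.6 per Mb; collagens stand at 848 per Mb in the pooled list.

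Yolk and chaperone genes held peaks at several-fold the overall density, on small numbers. The yolk protein list had 1 eligible gene, vit-6, with 4 peaks or 880 per Mb. Chaperone genes held 16 peaks in 12 of 51 genes (341 per Mb), with pooled signals of 54.6 in the small heat shock gene hsp-12.3, 52.4 in hsp-90, 50.6 in the DnaJ gene dnj-13 and 47.2 in hsp-17. Of these 4, hsp-17 alone had a summit in both replicates. Chaperone density was 362 per Mb in each replicate list.

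Ribosomal protein genes held 3 peaks in 3 of 36 genes (8.33%), close to the 8.22% over all genes. Their density of 433 per Mb rests on those 3 peaks over 6931 eligible bases. The peaks lay in rpl-3 at 44.9, rpl-4 at 35.7 and rps-1 at 32.6. Translation factor genes held 7 in 7 of 36 (19.4%, 232 per Mb), led by eef-1B.2 and by eef-1A.1, which delivers aminoacyl-tRNA to the ribosome, at 47.9. Next came the eIF4G gene ifg-1 at 40.8 and eif-3.B at 36.8.

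Reproductive, gut and fat genes stood at about 200 per Mb. The germline and oocyte list held 14 peaks in 12 of 49 genes (199 per Mb), with signals of 53.2 in the P granule gene pgl-1, 45.3 in the eggshell gene perm-4, 41.4 in the Piwi gene prg-1 and 40.7 in the yolk receptor gene rme-2. Intestinal genes held 5 in 3 of 12 (197 per Mb), including the microvillar actin act-5 at 49.0 and 42.1 and the transporter gene pgp-9 at 33.6. The act-5 peaks at 49.0 and 42.1 overlapped each other, so they are not separate regions. Lipid metabolism genes held 15 in 11 of 65 (193 per Mb), led by pod-2 and followed by acs-13 at 44.4, acdh-9 at 42.5 and acs-19 at 38.2.

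The sperm list changed place between lists. It held 6 peaks in 6 of 33 genes (179 per Mb), the highest in spe-18 at 38.0, spe-51 at 36.7, spe-9 at 36.5 and spe-39 at 35.8. Both replicate lists gave 59.5 per Mb for it, below the overall density of each.

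The muscle structure list, at 97.04 per Mb, lay near the overall 95.6 per Mb, and basement membrane and adhesion genes, at 71.3, lay below it. The muscle structure list held 14 peaks in 10 of 21 genes, among them paramyosin unc-15 at 52.2 and the myosin heavy chain unc-54 at 45.9. It also took in the spectrin gene sma-1 at 42.9 and the microvillar actin act-5 at 49.0, so it is not confined to muscle genes. Basement membrane and adhesion genes held 16 in 6 of 22, led by unc-52 at 54.6 and the giant adhesion protein dig-1 at 47.9. C-type lectin genes held 16 in 14 of 233 (92.4 per Mb), with clec-78 at 52.8, clec-240 at 49.6, clec-63 at 48.2 and clec-109 at 47.2, all 4 found in both replicates. The replicate lists hold background too, and the clec-109 summit ranked 11597 of 13745 by signal in replicate 3.

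Detoxification genes, often linked to nuclear receptors, held 15 peaks in 14 of 169 (92.0 per Mb). The highest were in the glucuronosyltransferase genes ugt-12, at 46.8 and 43.6, and ugt-17 at 45.1, and in the cytochrome P450 gene cyp-33C1 at 38.9. Nuclear hormone receptor genes themselves held 17 in 17 of 246 (80.0 per Mb), with nhr-88 followed by nhr-119 at 57.3, nhr-248 at 47.1 and nhr-44 at 44.96. Chromatin and transcription genes held 12 in 6 of 73 (81.0 per Mb), led by set-16 at 57.9, the SWI/SNF subunit gene swsn-1 at 57.4 and the deacetylase gene hda-10 at 53.1. None of these 3 lists stood above 95.6 per Mb in the pooled list, and the replicates split for 2 of them. Receptor genes stood at 103.5 in replicate 2, against 125.4 over all genes, and at 165 in replicate 3, against 136.4. Chromatin genes stood at 155 in replicate 2 and 87.7 in replicate 3.

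Chemoreceptor, neuronal and F-box genes were below the overall density. Chemoreceptor genes held 45 peaks in 45 of 1316 genes (53.4 per Mb), the highest in srxa-5 at 52.3, srv-1 at 49.0, srt-47 at 44.6 and srh-199 at 44.1. Neuronal genes held 6 in 6 of 127 (35.1 per Mb), in lgc-54 at 45.5, flp-23 at 39.5, twk-49 at 37.8 and lgc-34 at 33.4 among others. F-box and MATH/BTB genes held 8 in 8 of 374 (30.9 per Mb), led by fbxa-83 at 47.5, fbxa-13 at 40.8, fbxa-166 at 38.9 and fbxa-104 at 35.5.

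Homeobox genes, of which 58 had eligible bases, held no pooled peak. The replicate lists gave 48.6 and 195 per Mb for them, so the pooled value of 0 does not describe the replicates. The 2 histone genes with eligible bases held no peak in any of the 3 lists.

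Base composition moved with peak density. The median G and C content of the summit windows, 50 bp to either side, was 46.5% (quartiles 40.6 and 53.5%), against 40.6% over eligible bases. Promoter, intron and intergenic peaks showed offsets of similar direction, with 38.6% against 35.6%, 35.6% against 32.7% and 36.6% against 33.7%. Windows of 60% or more made 107 of the 1449 (7.38%), against 0.798% of 150032 windows of the same width set end to end over eligible bases.

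Density climbed steeply over the upper bands. It was 60.1 per Mb below 30%, 55.9 from 30 to 35%, 44.1 from 35 to 40% and 68.05 from 40 to 45%. It was then 108 from 45 to 50%, 249 from 50 to 55%, 488 from 55 to 60% and 913 from 60%. The share found in both replicates ran from 13.2% below 30% to 29.8% from 55 to 60% and 29.0% from 60%. Median signal went from 34.2 to 40.05 over the same bands.

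In every band from 35% upward, collagen genes were denser in peaks than other genes in the pooled list. From 50 to 55% the densities were 646 per Mb on collagens and 242 on other genes, from 55 to 60% they were 1237 and 439, and from 60% they were 1247 and 791. Those collagen values rest on 12, 27 and 39 peaks, and composition within the band open from 60% was not matched. Below 35% collagen genes held 0 peaks, over 583 and 1800 eligible bases in the 2 lowest bands, against 60.2 and 56.0 per Mb on other genes. The 3 bands from 35 to 50% held 2, 1 and 2 collagen peaks over 4359, 7512 and 11951 eligible bases. These made 459, 133 and 167 per Mb, against 43.7, 67.9 and 108 on other genes. At the average rate of the GC bands they span, collagen genes would hold 46.0 of the 83 peaks, an average that itself includes collagens. By the same measure chaperones would hold 4.62 of their 16, vit-6 0.800 of its 4, lipid genes 8.25 of 15, and germline genes 8.14 of 14. Receptor genes would hold 15.5, near their 17, and chemoreceptors 54.03, above their 45. For detoxification genes the measure gave 10.7 against their 15. Basement membrane and adhesion genes would hold 24.0 against their 16, and chromatin and transcription genes 18.6 against 12. F-box and MATH/BTB genes would hold 16.5 against 8, neuronal genes 13.0 against 6 and homeobox genes 3.65 against 0. The part of base composition in these densities was not tested.

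**Figure D4:**
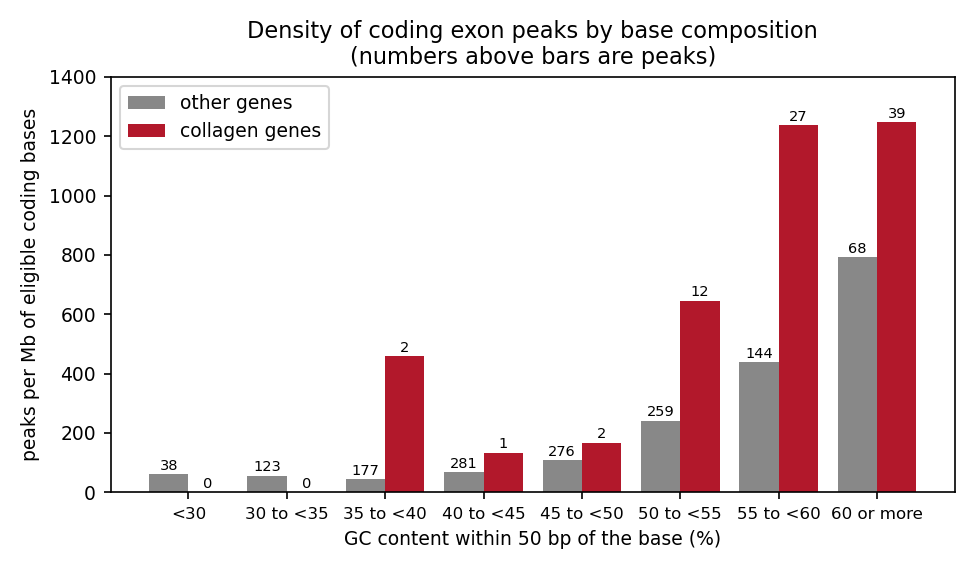
Coding exon peaks per Mb of eligible bases (y axis) by G and C content within 50 bp (x axis, %), for collagen genes (red) and other genes (grey), with the number of peaks above each bar. Grey bars reach 791 per Mb in the highest band and red bars 1247 per Mb.

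The excess was centred on the summit. In steps of 20 bp, mean G and C content was 49.1% at the summit and 38.3% at 500 bp upstream in genome orientation, against 42.7% and 36.7% around the centres of eligible windows. The eligible windows had a like shape at a lower level. Without collagens the centre stood at 48.4%, and collagen summits alone at 60.7%.

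**Figure D5:**
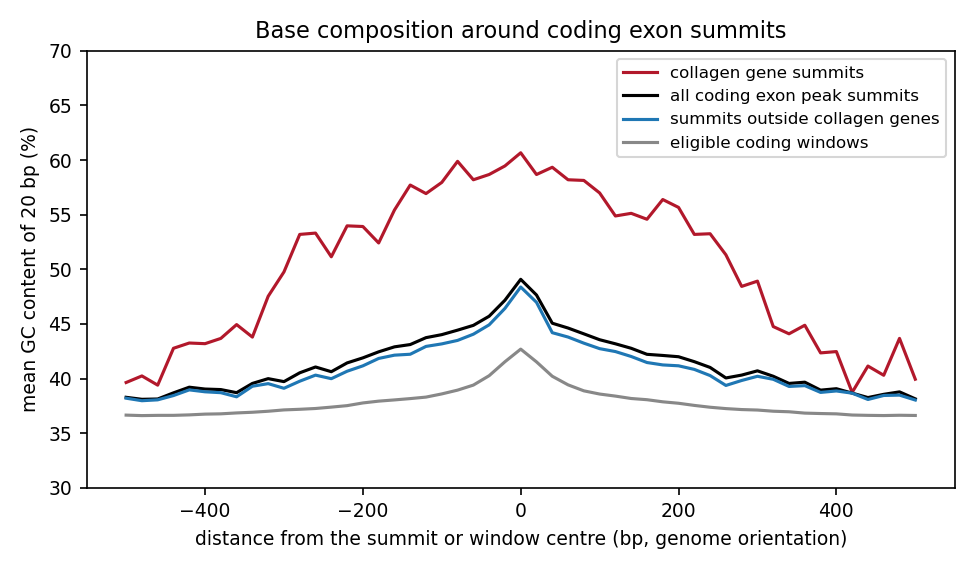
Mean G and C content of 20 bp (y axis, %) against distance from the summit (x axis, bp, genome orientation) for all coding exon peaks (black), those outside collagen genes (blue), collagen peaks (red) and eligible coding windows (grey). All 4 lines are highest at the centre, at 49.1%, 48.4%, 60.7% and 42.7%.

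The encoded residues followed the composition in part. Glycine made 8.14% of codons in the summit windows, 29.2% in collagen windows, 6.73% without collagens and 5.40% in eligible windows. Proline made 7.50%, 23.5%, 6.43% and 4.96%, and alanine 8.38%, 9.10%, 8.33% and 6.42%. The codons of these residues have G or C at both first positions. So do most codons of arginine, at 5.37%, or 5.51% outside collagens, against 5.14%. Glutamine, with A at the second position, was also higher, at 4.66% outside collagens against 4.12%. Isoleucine, with A and T there, made 5.15% outside collagens against 6.16%, and phenylalanine 3.94% against 4.64%.

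Peaks sat later in the coding sequence than the eligible bases did. Last coding exons held 383 of the 1440 summits placed in a longest coding transcript, or 26.6% (exact interval 24.3 to 29.0%), against 17.2% of eligible bases. The replicate lists gave 25.01% and 24.8%. Internal exons held 71.9% against 81.7%, first exons 0.903% against 0.892% and single exons 0.556% against 0.254%. With the coding sequence cut in 5 equal parts from its start, the shares were 5.28%, 17.1%, 21.9%, 28.1% and 27.6%, against 7.79%, 19.1%, 24.0%, 25.1% and 24.0% of eligible bases.

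The exons concerned were somewhat long. Their median length was 355 bp against 295 bp weighted by eligible bases, and summits lay a median of 81.5 bp from the nearer exon end against 65 bp. The distance to the nearest start ran from 501 to 20330 bp with a median of 1325 bp, and 475 peaks (32.8%) were within 1000 bp, against 30.4% of eligible bases. The plus strand carried 753 of the genes' coding windows and the minus strand 696.

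Long genes collected more peaks, but fewer per base. Of genes with up to 500 eligible bases 3.64% held a peak, at 139.4 per Mb. Of those with over 4000 bases 29.1% did, at 73.6 per Mb. In all, 152 genes held 2 or more peaks, 344 peaks between them, and 27 held 3 or more. A promoter peak was also present at 256 of the 1257 genes with a coding exon peak (20.4%), against 1828 of all 15299 (11.9%). The 1257 genes had a median of 1103 eligible bases, against 708 over all genes, and the shares were not matched for length.

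The most peaks in a gene was 7. The perlecan gene unc-52, a basement membrane proteoglycan that anchors body wall muscle, held 7 peaks over 11409 eligible bases. Their pooled signals were 30.2, 33.2, 34.7, 38.3, 41.0, 41.2 and 54.6, and 2 of the 7 were found in both replicates. The histone methyltransferase gene set-16, of the MLL type, also held 7 over 7158 bases, with signals of 30.6, 31.7, 40.6, 43.2, 44.0, 49.4 and 57.9. In set-16 3 of the 7 were found in both replicates, and 2 pairs shared exons 10 and 11.

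Below these, mlt-11, a papilin-like gene needed for moulting, held 5 peaks with signals of 31.6, 33.2, 33.7, 41.4 and 46.5, and none was in both replicates. The cadherin gene cdh-12 held 4, at 35.02, 36.4, 37.5 and 52.3, again with none in both. The yolk gene vit-6 held 4, at 30.3, 36.8, 38.1 and 52.3, with 3 of them in its exon 3 of 3948 bp. The peaks at 36.8 and 52.3 in vit-6 overlapped each other, as did those at 33.2 and 38.3 in unc-52 and at 33.7 and 41.4 in mlt-11, so these are not separate regions. Of the 4 in vit-6, the peak at 36.8 had a summit in both replicates. The kinase gene mnk-1 also held 4 peaks, over only 1757 eligible bases, and 1 of them was in both replicates.

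Chromosome I was sparse. It held 198 peaks at 67.0 per Mb, while chromosomes II, III, IV and V held 304, 262, 275 and 410 at 104.6, 98.2, 98.8 and 106.7 per Mb. Replicate 2 gave 95.8 per Mb on chromosome I against 128 to 139 elsewhere, and replicate 3 gave 101.9 against 135 to 155. Chromosome I was also the lowest for all autosomal pooled peaks, at 65.8 per Mb against 81.5 to 96.6 elsewhere. The median composition of eligible bases on chromosome I was 41.6%, equal to that on II and III.

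Chromosome centres held fewer peaks than their coding sequence. The middle 50% of the chromosomes held 716 of the peaks (49.4%) and 59.4% of eligible bases, and the share was below that of eligible bases on each of the 5 autosomes. It ran from 43.8% on II, against 57.3% of eligible bases, to 54.2% on IV, against 62.9%. In each replicate list the share in the middle was also below that of the eligible bases on every autosome.

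Words repeated in the genome did not gather under the peaks. A 32-base word found elsewhere occurred in 65 of the 1449 windows (4.49%), against 7.07% of eligible windows and 8.14% of all autosomal pooled peaks. Of the 1449 summits, 4 lay in an ncRNA gene and 4 in an antisense RNA gene. The share of eligible bases in such genes was not taken.

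Short motifs known for nuclear receptors were uncommon in the windows. AGGTCA, the classic receptor half-site, occurred on either strand within 50 bp of 43 summits (2.97%), against 2.03% of eligible windows, and in none of the 100 highest peaks. GGGTCA occurred at 23 (1.59% against 1.39%) and AGTTCA at 73 (5.04% against 7.40%), with 0 and 3 of the 100 highest. Other words, not chosen as receptor sites, were counted too. GAGAGA occurred at 5.73% against 5.37%, GAAGAA at 15.5% against 18.4% and TTTTTTTT at 1.10% against 2.37%. GCGCAGGG, named by an earlier report of these data, occurred at none against 0.0207%. A match or its lack describes the letters in these windows and nothing about binding.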

How the data were processed

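The 2 replicate lists, the pooled list and the optimal list are peak tables deposited by the authors on build ce11. Per the file headers and the notes deposited with them, the pooled and replicate lists hold peaks and background, called against a control alignment, and the optimal list was chosen by the irreproducible discovery rate. The deposited signal value has no stated scale, and the deposited −log10 q value was used only to count peaks and for its median. The aligner and caller are not given in the sources used here, and read depth is unknown. Lists on ce10 were not used here.

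Summits were placed on Ensembl release 115 genes of WBcel235 with Python 3.11.15, numpy 2.4.6, pandas 2.3.3 and Biopython 1.88, and 2773 genes took their names from RefSeq. Summits within 100 bp were called shared. Eligible bases met the same position rule as the peaks. Scripts were tested on simulated data. Both replicates form 1 group, so no test was run. Exact Clopper-Pearson intervals for shares and order-statistic intervals for medians, at 95%, cover counting error over peaks only. Gene lists were matched by symbol, and a gene can be in more than 1.

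Named genes are those of the 25 highest peaks, all peaks in the optimal list, the 5 genes with most peaks (ties, here 3 genes with 4, by eligible coding length, which left out mnk-1) and the genes of up to 4 highest peaks in each list. The peaks and lists were chosen with earlier results of these data known. Alternatives varied the distances, annotation, list, replicate and window.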

Additional observations from a re-analysis of the deposited data

How the results depend on the processing

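Of 77 alternative values, 28 moved, by over 1.5 times for a count and beyond the interval for other values, and 49 moved less or not at all. Counts within 1.5 times still ranged from 974 to 2067 for the 1449 peaks and from 105 to 228 for the 152 genes with 2 or more, lowest beyond 1000 bp from starts and highest in the replicate 3 list. In the upper 50% of the pooled list there were 712 peaks with a median signal of 41.6, 38.9% in both replicates, a median GC content of 48.5%, 30.9% in last exons and 50 genes with 2 or more. The optimal list left 5 peaks, 3.94% of its autosomal peaks, with a median signal of 90.2, 100% in both replicates, 42.6% GC, 60% in last exons and 0 genes with 2 or more. The share of autosomal peaks was 25.05% beyond 250 bp from starts and 14.03% beyond 1000 bp, where 3 peaks were in the optimal list and 23.2% in last exons. The share in both replicates was 12.5% within 50 bp, 32.5% within 200 bp and 41.8% by overlap. Median GC content was 49.0% within 25 bp of the summit and 45.8% within 100 bp. Replicate lists used alone gave shares of autosomal peaks from 19.8 to 20.5%, median signals from 19.4 to 19.7 and GC content from 44.6 to 46.5%. Of the coding exon peaks in a replicate's own list, 14.9 to 15.9% had a summit in the other replicate list. That measure differs from the share of pooled peaks found in both. The cause of these shifts was not tested, and signals of separate lists may not share a scale.

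No paired analysis was possible because both replicates belong to 1 group and no result comes from a test. With 2 samples and no read counts, replicate error cannot be given per peak.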

Other observations

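Coding exons of the X chromosome, under the same rule, held 417 pooled peaks at 152.6 per Mb, against 95.6 per Mb on the autosomes. All pooled peaks on X stood at 149.0 per Mb, against 84.1 per Mb on the autosomes. Coding exons took 15.8% of the X peaks and 15.4% of the X bases. The X coding exon peaks had a median signal of 36.7, a highest signal of 89.7 and a median GC content of 45.5%, and 95 (22.8%) had a summit in both replicates. The optimal list held 2 of them.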
